A study of Mus musculus with 6 samples.

Results

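The miR-132 and miR-212 cluster was followed in exosomes of RAW 264.7 cells, a mouse macrophage line. Its members were the 4 mature miRNAs cut from the Mir132 and Mir212 hairpins (mmu-miR-132-3p, mmu-miR-132-5p, mmu-miR-212-3p and mmu-miR-212-5p, written below without the mouse prefix). The rule that picks them uses their names and no measured value, but they were chosen with earlier results of these data known. They are 4 of the 1881 mouse miRNAs on the array and are read by 8 of its 4415 probes. Exosomes, the vesicles of endosomal origin shed into culture medium, take up part of a cell's miRNA. The LPS group held exosomal RNA from 3 samples of RAW 264.7 cells given 2 µg/mL lipopolysaccharide (LPS), the outer membrane glycolipid of Gram-negative bacteria and the ligand of TLR4, with supernatant taken at 72 h. The control group held exosomal RNA from 3 samples of the same line without LPS, for which no culture time was recorded. In both groups vesicles were isolated from supernatant by size-exclusion chromatography, and each RNA was hybridised to 1 one-colour Agilent miRNA array. The labels name a kit for amplified cRNA, an unusual choice for miRNA, so how the RNA was labelled, and with it what brightness reflects, is unsettled. The labels do not say that the samples of a group came from separate cultures, so p-values rest on a spread that may be technical. With 3 arrays in a group, the number of arrays limits the precision, and the smallest p of an exact permutation test is 0.1.

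A miRNA hairpin is processed into a 5p and a 3p arm, and 1 arm usually becomes the main mature miRNA. Bases 2 to 8 of a mature miRNA, its seed, do most of the pairing with target mRNAs. In neurons the cluster is known as a target of the transcription factor CREB and as a regulator of dendrite growth. In innate immune cells miR-132 is known as an LPS-induced miRNA, described in a human monocytic line beside miR-146 and miR-155, and its targets there include the acetyltransferase EP300, acetylcholinesterase and the TLR signalling kinase IRAK4.

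The mature sequences are shown because the 3p and 5p arms behaved differently on the arrays and because both 3p arms carry the same seed. They are from RefSeq (assembly GRCm38.p6, chromosome 11, plus strand), 5′ to 3′, with the seed in capitals.
miR-132-3p: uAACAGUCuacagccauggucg
miR-212-3p: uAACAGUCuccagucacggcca
miR-132-5p: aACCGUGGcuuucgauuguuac
miR-212-5p: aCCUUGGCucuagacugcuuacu
All 4 members were matched in RefSeq. Of 1679 mature mouse miRNA names in that table, 2 carried the seed of the 3p arms, and these were miR-132-3p and miR-212-3p. The seed of miR-132-5p and that of miR-212-5p were each found in 1 name. Counted from the 5′ end, miR-132-3p and miR-212-3p differed at 5 of 22 positions, which with the miR-132-3p base first were A10C, C14U, U17C, U20C and G22A. None of these positions lies in the seed.

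The hairpins show where each arm sits, with the mature arms in capitals, the 5p arm first and the 3p arm after it. Mir212 is at chr11:75173388-75173478 and Mir132 at chr11:75173682-75173747, both on the plus strand of GRCm38.p6.
Mir212: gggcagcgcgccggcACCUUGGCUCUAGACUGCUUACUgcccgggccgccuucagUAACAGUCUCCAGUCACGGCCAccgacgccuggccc
Mir132: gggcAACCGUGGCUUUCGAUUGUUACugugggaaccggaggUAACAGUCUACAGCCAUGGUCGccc
In RefSeq gene order the pair of hairpins stands between Hic1, which encodes a transcriptional repressor, and Ovca2.

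Each member had 2 probes of different length, with 15 spots each on every array. The probes of the 3p arms are shown because they decide whether the near-identical 3p miRNAs can be told apart; capitals mark the bases that pair with the 5 positions at which miR-132-3p and miR-212-3p differ.
miR-132-3p probe of 16 bases: CgAccAtgGctgTaga
miR-132-3p probe of 15 bases: CgAccAtgGctgTag
miR-212-3p probe of 14 bases: TgGccGtgActgGa
miR-212-3p probe of 13 bases: TgGccGtgActgG
Each of these 4 probes covers all 5 differing positions, so each has 5 mismatches to the other 3p miRNA. The files place the 16-base probe at chr11:74987232-74987246 and the 14-base probe at chr11:74986954-74986966 of mm9, spans that are 1 base shorter than the probes. The probes of the 5p arms, which gave no signal above background, are those of 16 and 17 bases for miR-132-5p and of 17 and 18 bases for miR-212-5p.

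The arrays of the groups differed in brightness as a whole, and this touches every value of the cluster. The 75th percentile of signal over the 198 miRNAs detected on all 6 arrays was 2229 ± 180 on LPS arrays and 477 ± 41.0 on control arrays (SD, n = 3 each), a ratio of 4.67 (two-sided exact permutation p = 0.1). The spiked-in RNAs gave a geometric mean of 2363 ± 186 on LPS arrays and 2670 ± 68.3 on control arrays, a ratio of 0.885. LPS arrays detected 412 to 446 miRNAs and control arrays 213 to 228. More vesicles in the supernatant, more miRNA per vesicle, the unsettled labelling and the unrecorded control culture time cannot be told apart in these samples. The cause of the difference in brightness was not tested. Values are therefore given both as deposited, called unscaled signal, and as scaled signal, in which each array was divided by that 75th percentile and multiplied by 1029. Slide row 1 held the 3 control arrays and LPS 1, and slide row 2 held LPS 2 and LPS 3.

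miR-132-3p, the main arm of its hairpin and the miRNA that targets EP300 and acetylcholinesterase, was present in exosomes of both groups and was higher after LPS. On its 16-base probe the unscaled signal was 1083, 1271 and 1288 on the LPS arrays, against 131, 148 and 153 on the control arrays. Every LPS array was above every control array, and the ratio of means was 8.42 on the linear scale, or 3.07 as a log2 difference (two-sided exact permutation p = 0.1, adjusted p = 0.16 over the 8 probes). The 15-base probe read 555, 683 and 671 on the LPS arrays and 70.7, 74.2 and 77.1 on the control arrays, with an 8.57-fold ratio. The shorter probe therefore gave a ratio close to that of the longer one. All spots kept for these probes were well above background (45 on LPS and 41 on control arrays for the 16-base probe, 39 and 41 for the 15-base probe), and none was saturated.

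The signal of the longer over the shorter miR-132-3p probe was 1.91 ± 0.0466 on LPS arrays and 1.95 ± 0.0821 on control arrays (SD, n = 3 each; exact permutation p = 0.6). The ratio of the probes differed between groups by less than the spread between arrays.

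miR-212-3p, which shares its seed with miR-132-3p and so is expected to share many of its targets, was measured in LPS exosomes and was not above background in control exosomes. That pattern was common: of 412 miRNAs detected on all arrays of at least 1 group, 187 were detected on all LPS arrays and no control array. On its 14-base probe the unscaled signal was 125, 148 and 143 on the LPS arrays, against -1.91, -0.693 and 2.01 on the control arrays. The 13-base probe read 58.3, 70.0 and 62.8 on the LPS arrays and -8.29, -8.52 and -3.68 on the control arrays. Both probes separated the groups completely, with control values around 0 on the 14-base probe and below 0 on the 13-base probe, as background subtraction can leave spots without signal. All 44 kept spots of the 14-base probe on LPS arrays were well above background, and 0 of 43 were on control arrays; for the 13-base probe it was 45 of 45 and 0 of 44. The differences in unscaled signal were 139 and 70.5 (two-sided exact permutation p = 0.1, adjusted p = 0.16 for each).

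A control value below background has only an upper bound, so a fold change of miR-212-3p is a lower bound. Its LPS mean was set against the lowest signal well above background on each control array, which was 30.5 to 34.4 unscaled, and this gave at least 4.32-fold higher unscaled signal in LPS exosomes. That bound lies below the 8.42-fold ratio of miR-132-3p, so the data do not order the changes of these 3p miRNAs. On the control arrays the miR-132-3p probes were well above background on 3 of 3 arrays and the miR-212-3p probes on 0 of 3.

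The 4 probes of the 3p arms were thus higher on every LPS array than on every control array. Of all 4415 probes, 28.7% showed that order, and of the 430 probes of miRNAs detected on all 6 arrays, 77.4% did.

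The 5p arms were detected on 0 of 6 arrays, and 0 of their spots were well above background. The 17-base probe of miR-132-5p read 3.05, 1.36 and 0.465 on the LPS arrays, against 6.45, 5.51 and 4.04 on the control arrays. Its groups did not overlap (two-sided exact permutation p = 0.1, adjusted p = 0.16), with the LPS arrays lower, an order seen in 13.3% of all probes; the 16-base probe of the same arm overlapped between groups at -1.61, 0.496 and -5.38 on LPS arrays and 0.542, -1.13 and 0.815 on control arrays (exact permutation p = 0.2). The 18-base probe of miR-212-5p read 0.790, 1.25 and -0.464 on the LPS arrays and -0.270, 0.134 and 1.66 on the control arrays (exact permutation p = 1), and its 17-base probe read -0.5225, -3.209 and -4.139 on the LPS arrays and -1.003, -1.143 and 2.173 on the control arrays (exact permutation p = 0.3). The groups overlapped on both probes of miR-212-5p.

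These 5p signals were set beside the 1417 miRNAs detected on no array, whose unscaled signal had a 5th percentile of -7.49, a median of -0.0899 and a 95th percentile of 13.1 on LPS arrays, and of -7.13, 0.0300 and 11.4 on control arrays. The mean of miR-132-5p was reached or passed by 40.0% of them on LPS arrays and by 21.4% on control arrays. For miR-212-5p the shares were 45.9% on LPS arrays and 46.8% on control arrays. The control mean of miR-212-3p, -0.200, was reached or passed by 51.6%. The 5p arms are themselves among the 1417 miRNAs, since these are all miRNAs without detection, so their place in that range is no independent test. The control mean of miR-212-3p, which is not among the 1417, also lay in that range. Where a member was not called detected, its signals are background readings. Differences and p-values that use them are given as read and set no level for that member.

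**Figure D1:**
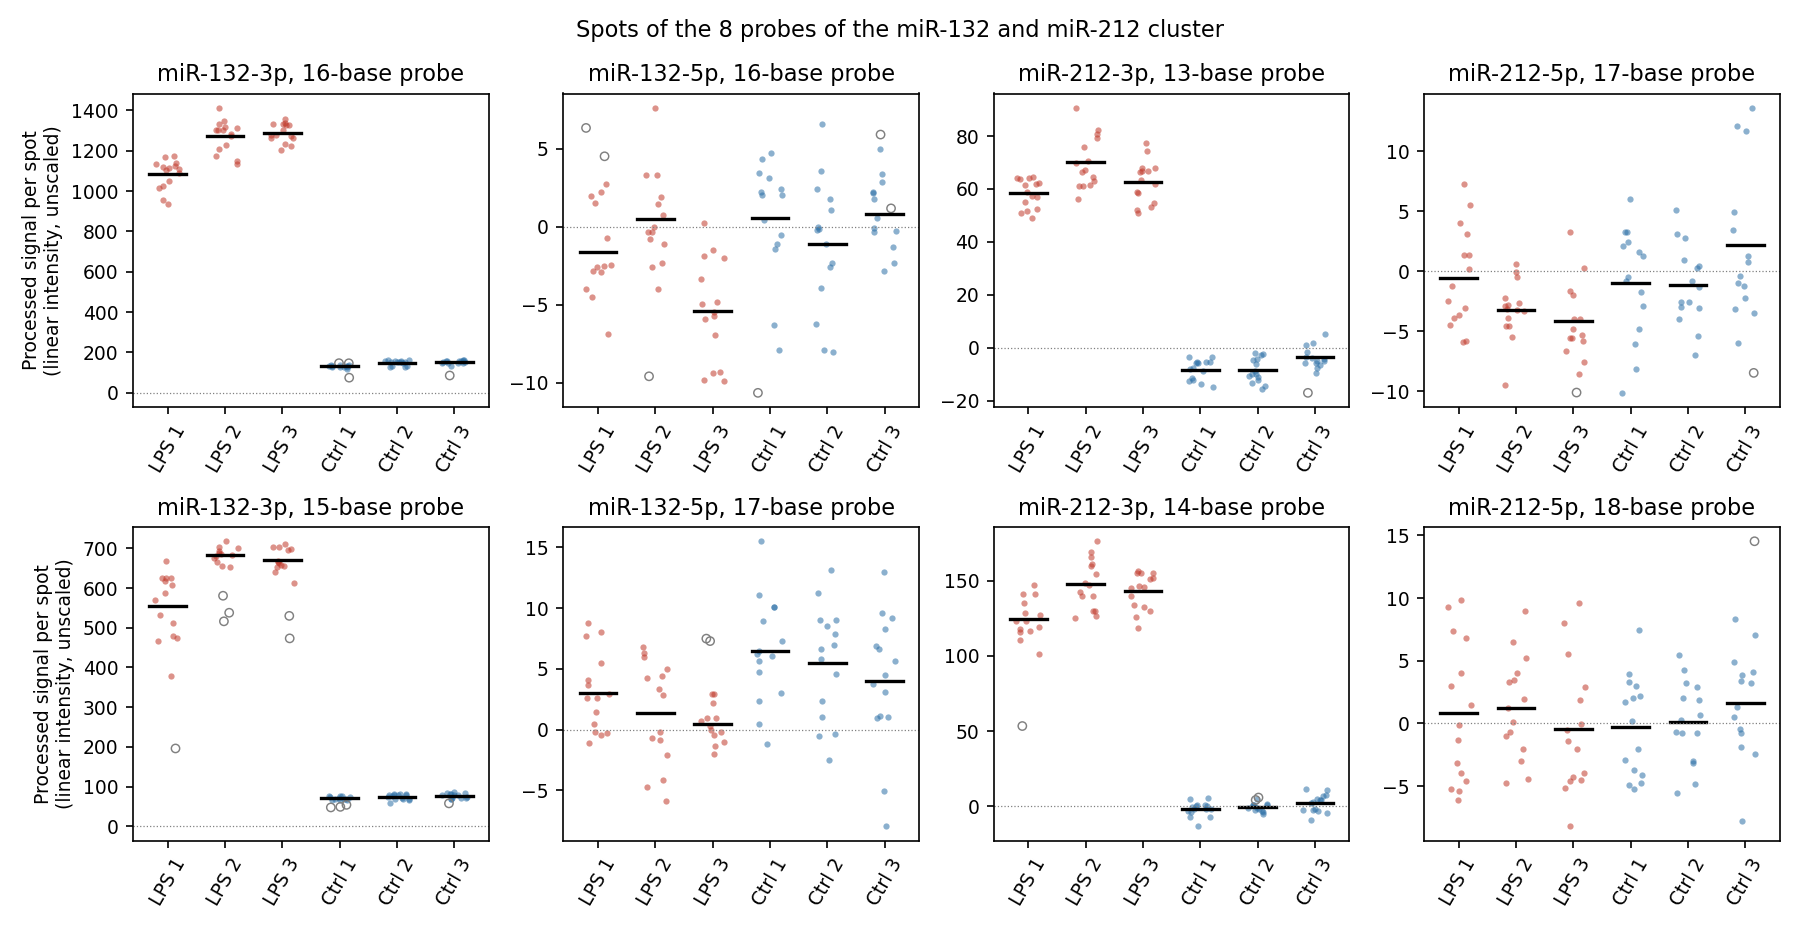
Unscaled processed signal (linear intensity, vertical axis, own range per panel) of each spot of the 8 probes on the 3 LPS arrays (red) and 3 control arrays (blue). Open grey circles are spots the scanner software marked as outliers, black bars are means of the other spots. Both miR-132-3p probes are above 0 on all arrays and highest after LPS, both miR-212-3p probes are well above 0 only on LPS arrays, and the 5p probes scatter around 0.

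After scaling, the level of miR-132-3p was 551, 558 and 571 on the LPS arrays, against 312, 299 and 322 on the control arrays. Every LPS array was again above every control array, and miR-132-3p rose 1.80-fold: the scaled log2 level was 9.13 ± 0.026 in LPS exosomes and 8.28 ± 0.053 in control exosomes (SD, n = 3 each). The log2 difference was 0.85 with a standard error of 0.043 and a 95% interval of 0.745 to 0.956 (limma, Benjamini-Hochberg adjusted p = 2.27e-06 over 412 tested miRNAs). Calls were common in this comparison: 65.5% of the 412 tested miRNAs were called higher and 26.7% lower, and over the 198 miRNAs detected on all 6 arrays 58.1% were called higher, 38.4% lower and 98.5% had groups that did not overlap. Of the 4 members 2 were tested, miR-132-3p and miR-212-3p, and the 5p arms were not, since neither was detected.

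The change of miR-132-3p stood in the middle of the miRNAs measured on all arrays. It was 0.083 above their median log2 change of 0.77, with 90 of the other miRNAs showing a larger change and 107 a smaller one. The unscaled replicate spread of miR-132-3p, a coefficient of variation of 9.37% in LPS and 8.22% in control exosomes, narrowed to 1.77% and 3.69% after scaling. The array of the first LPS sample, lowest of its group before scaling, was still lowest afterwards, but by a smaller margin.

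Scaled miR-212-3p was 63.6, 64.9 and 63.3 on the LPS arrays, a mean of 63.9 ± 0.838 and a coefficient of variation of 1.31% (8.69% unscaled). The scaled control arrays, being dimmer, could show a signal well above background only from 74.6, 61.4 and 72.2 upward. The LPS level of miR-212-3p lay below 2 of these 3 limits, so this scaling gave no fold above 1 for it, and its adjusted p in the fit (limma, 7.67e-09) rests on control values set to a common floor. The scaled control signal itself read -4.565, -1.398 and 4.21, below the LPS values on each array. The fitted log2 value was 2.69, with 2.07 for the gene total signal and 2.09 after quantile normalization. With normexp background correction, which adds an offset to every spot, the fitted log2 value turned to -0.41. Scaling to the 75th percentile over all miRNAs gave a bound of at least 2.11-fold and scaling to the spiked-in RNAs at least 4.89-fold. Whether the bound of miR-212-3p lies above 1 therefore depends on the scaling.

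**Figure D2:**
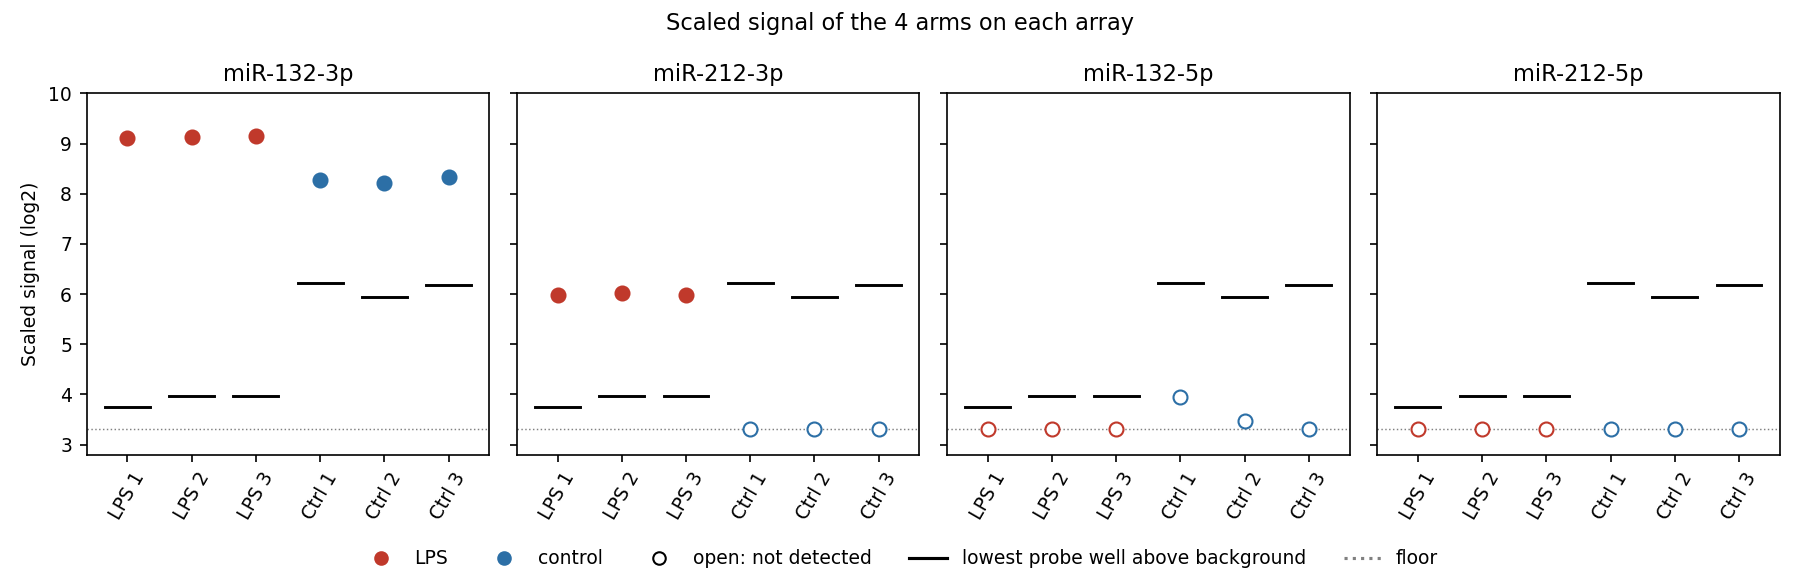
Scaled signal (log2, vertical axis) of the 4 arms on the 3 LPS arrays (red) and 3 control arrays (blue), with open circles where the arm was not detected, black bars at the lowest signal well above background on that array and a dotted line at the floor. miR-132-3p is above the bars on all 6 arrays, miR-212-3p only on LPS arrays and at about the height of the control bars, and both 5p arms stay below the bars.

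The size of the miR-132-3p change followed the scaling. The log2 difference was 3.07 with no scaling and 3.25 with scaling to the spiked-in RNAs, where the median of the 198 miRNAs was 2.99 and 3.17. With median centring it was 0.53 beside a median of 0.45. Dividing each array by 1 factor shifts every miRNA alike, so in these settings the distance of 0.083 from the median is fixed by construction. Where the correction acts on each spot or miRNA the distance could move, and it was 0.41 with normexp background correction, 0.84 with the gene total signal and 0.13 after quantile normalization. In the authors' deposited value table, which is on a log2 scale with a normalization that no source used here states, miR-132-3p was 8.96, 8.93 and 8.92 in LPS and 8.34, 8.33 and 8.38 in control samples, a difference of 0.58 beside a median of 0.53. The same table held miR-212-3p at 5.35, 5.41 and 5.38 in LPS and 2.65, 2.64 and 2.68 in control samples, a difference of 2.72 from values near the table's column medians of 2.73 to 2.74.

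**Figure D3:**
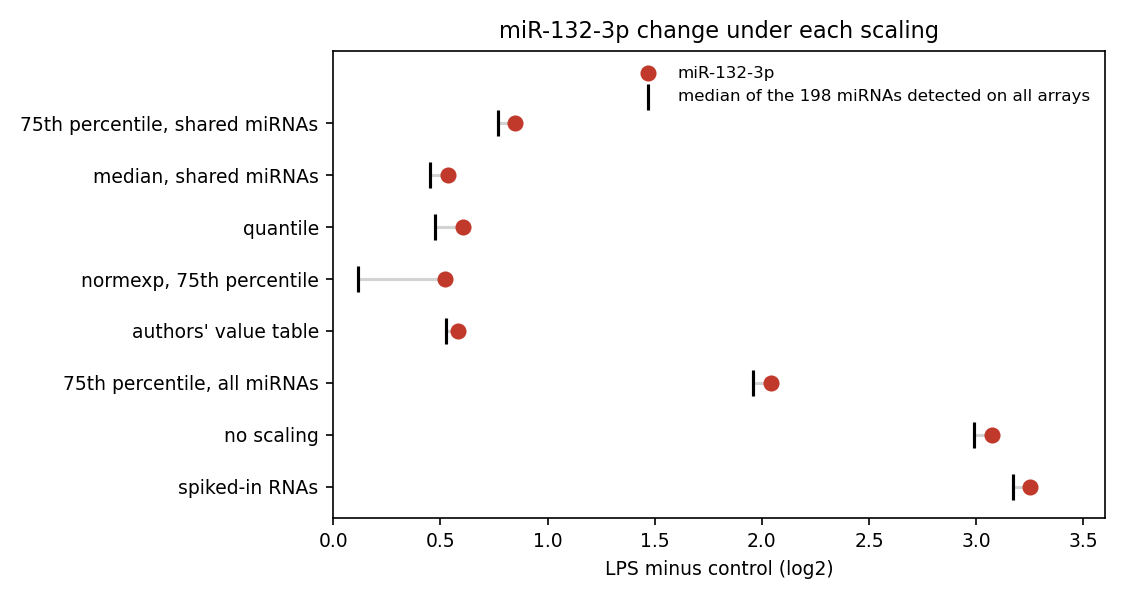
LPS minus control log2 difference (horizontal axis) of miR-132-3p (red points) and the median of the 198 miRNAs detected on all arrays (black ticks) under 8 ways of scaling or correcting the arrays (rows). miR-132-3p lies between 0.52 and 3.25 and to the right of the median in every row. In rows that only divide each array by 1 factor, its distance from the median is the same by construction.

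Slide position was checked within row 1, which held LPS 1 and all control arrays. The scaled log2 difference of miR-132-3p there was 0.86, with 1 LPS array, beside 0.85 over all arrays. With row as a block it was 0.83, a value that also rests on LPS 1 against the control arrays and is no separate check. Row 2 held no control array and gave no value of its own, and the same 3 control arrays enter each of these values. The part of slide row was therefore tested only with that single LPS array.

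A list of 16 other miRNAs, reported as LPS-responsive in macrophages, was set beside the cluster. The list was chosen with earlier results of these data known, so its counts and median are descriptive. It held miR-155, miR-146 and miR-9 family arms, miR-147-3p, miR-187-3p, miR-21a, miR-221-3p, miR-222-3p and the miR-99b, let-7e and miR-125a cluster. Of the 16, 6 were detected on all 6 arrays, and 6 of 6 rose (also with normexp), beside 58.1% called higher among the 198 miRNAs detected on all arrays, with a median log2 change of 2.87 beside 0.77. A further 5 were detected on LPS arrays only, as were 187 of the 412 tested miRNAs. They passed the filter through those arrays, so their call as higher follows in large part from the filter and the floor. With them the list counted 11 higher and 0 lower of 11 tested, against 6 higher and 4 lower with normexp background correction and 9 higher and 2 lower with the gene total signal. Of these 5, let-7e-5p and miR-125a-5p were at least 1.83-fold and 1.35-fold higher (-0.066 and -0.22 as fitted log2 values with normexp), and miR-99b-5p, miR-21a-3p and miR-9-3p, like miR-212-3p, had no bound above 1. The remaining 5 (miR-155-3p, miR-146a-3p, miR-147-3p, miR-187-3p and miR-9-5p) were detected on no array.

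miR-132-3p changed less than each of the 6 list members measured in both groups. miR-155-5p, which represses SOCS1 and SHIP1 in activated macrophages, had a scaled log2 level of 10.55 in LPS and 6.37 in control exosomes, a rise of 4.18 (SE 0.067; limma adjusted p = 1.72e-08). miR-146b-5p and miR-146a-5p, which share a seed and target the TLR signalling proteins TRAF6 and IRAK1, rose by 3.05 and 1.34. miR-221-3p and miR-222-3p, which target the cell cycle inhibitor p27, rose by 3.003 and 2.742. miR-21a-5p, which targets PDCD4, rose by 1.36.

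The comparison was then made within each array, where scaling cancels. The log2 difference of miR-132-3p from miR-155-5p was 3.33 lower on LPS arrays than on control arrays, given as -3.33 with a standard error of 0.074. The same difference was -2.20 from miR-146b-5p, -2.15 from miR-221-3p, -1.89 from miR-222-3p, -0.51 from miR-21a-5p and -0.49 from miR-146a-5p. In each of these 6 comparisons the groups did not overlap (two-sided exact permutation p = 0.1, adjusted p = 0.1 over the 6), the smallest value that 3 against 3 arrays allow. The 6 partners are from the list chosen with earlier results of these data known, so these comparisons too are descriptive. Separation was common: on scaled signal, groups did not overlap for 98.5% of the 198 miRNAs detected on all 6 arrays. The share of miRNAs whose difference from miR-132-3p separates the groups is not given here. These are differences between changes, and the levels of different probes were not compared.

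**Figure D4:**
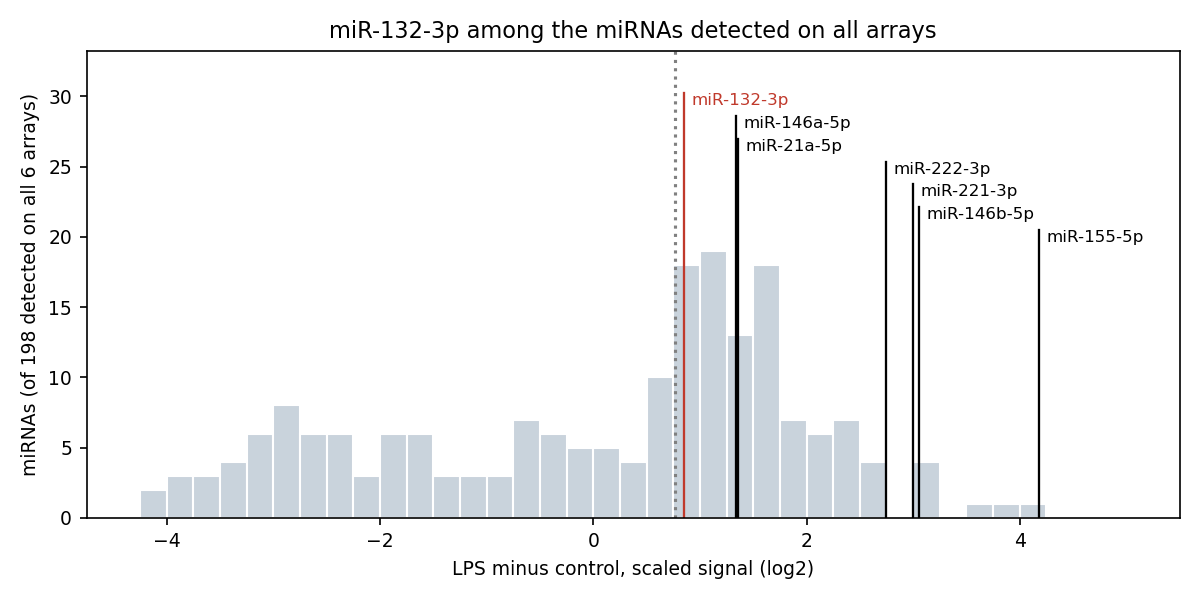
Number of miRNAs (vertical axis) by LPS minus control difference in scaled log2 signal (horizontal axis) for the 198 miRNAs detected on all 6 arrays. The red line marks miR-132-3p at 0.85, the dotted line the median at 0.77, and black lines the 6 LPS-induced miRNAs at 1.34 to 4.18, all to the right of miR-132-3p.

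In the order of change, the miRNAs just above miR-132-3p were miR-34a-5p at 0.87, miR-3963 at 0.87 and miR-5100 at 0.88, and those just below were miR-6948-3p at 0.85, miR-7005-5p at 0.85 and miR-19a-3p at 0.83 (scaled log2 differences). miR-34a-5p is a direct p53 target. The standard errors of these 6 were 0.037 to 0.104, and each of the 6 differed from miR-132-3p by less than its own standard error.

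The miRNA with the pattern most like that of miR-132-3p over the 6 arrays was miR-19a-3p. After each miRNA was centred on its own mean, its scaled log2 values differed from those of miR-132-3p by 0.0125 (root mean square), and its own change was 0.83. Next among 197 miRNAs compared came miR-130b-3p at 0.0237, miR-7005-5p at 0.0246, miR-342-3p at 0.0269 and miR-22-3p at 0.0278. The 6 arrays share their hybridisation and scaling, and most of each pattern is the step between groups. Likeness here therefore describes a similar step and a similar order of the arrays.

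The cell line label was checked against marker miRNAs. Of 5 macrophage and myeloid miRNAs (miR-223-3p, miR-142a-3p, miR-142a-5p, miR-342-3p and miR-146a-5p), 5 were detected on all LPS arrays and 4 on all control arrays, with a summed scaled signal of 10520 to 11890 on LPS and 4613 to 4693 on control arrays. Most of that sum was miR-146a-5p, which is also on the LPS-induced list; the other 4 summed to 1244 to 1316 on LPS and 649 to 691 on control arrays. Neurons are a cell type rich in the cluster; of 11 neuronal miRNAs 6 were detected on all LPS and 2 on all control arrays, with a summed scaled signal of 539 to 548 on LPS and 279 to 316 on control arrays. miR-128-3p, at a scaled log2 level of 8.26 in LPS and 6.19 in control exosomes, was detected on all LPS and all control arrays. So was miR-134-5p, at 5.39 in LPS and 5.96 in control exosomes. miR-9-3p, miR-138-5p, miR-219a-5p and miR-338-3p were detected on all LPS arrays. Of the 6 neuronal miRNAs tested, 4 were called higher and 2 lower (miR-134-5p and miR-338-3p), beside 65.5% and 26.7% of all tested miRNAs. The defining miR-124-3p, with miR-9-5p, miR-137-3p, miR-129-5p and miR-218-5p, was detected on no array. Of 6 serum, erythroid and liver miRNAs 1 was detected on all LPS arrays and 0 on control arrays, of 6 muscle and fibroblast miRNAs 0 and 0, and of 3 lymphocyte miRNAs 2 and 0. The sums include signals of undetected miRNAs: the muscle and fibroblast list summed to 7.13 to 11.5 on LPS and 45.9 to 53.5 on control arrays. The part of these lists in the change of the 3p arms was not tested.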

How the data were processed

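Exosomal RNA of 3 LPS and 3 control samples was hybridised to one-colour Agilent arrays for mouse miRNAs. The deposited scanner files hold linear intensity, background-subtracted by Agilent Feature Extraction 10.7.1.1 on build mm9 per the file headers; the submitters' processing notes name version 9.1. A series value table, deposited in log2 units, served as an alternative. For each probe the mean processed signal of its spots was taken without control and outlier spots, and a miRNA was read by its probe with the highest mean. Each array was divided by the 75th percentile of its 198 miRNAs found on every array, floored at 9.888 (3.306 as log2) and logged. A miRNA detected on 3 of 3 arrays of a group was tested with limma 3.58.1 (lmFit, eBayes) in R 4.3.3, Benjamini-Hochberg threshold 0.05. A probe counted as well above background where at least 0.5 of its spots did. Unscaled probe signals were compared as log2 where well above background on all arrays, and otherwise on the linear scale, since values at or below 0 have no log. The fit was tested on simulated data. Named miRNAs were the 4 members, the LPS-induced list, the marker lists, the 3 neighbours in change on each side and the 5 most alike. Members and lists were chosen with earlier results of these data known. Replicates of a group held no identical values. Same-numbered arrays deviated oppositely (r = -0.40, -0.22 and -0.28 across miRNAs), so no shared deviation was seen. With 3 arrays in a group the deviations constrain each other, so these values cannot show whether samples were paired. Replicate numbers were not used as pairs in the main fit. Alternatives covered scaling, background correction, summary signal, filters, floor, variance, slide row, replicate block and leaving out each replicate. Per-sample columns left unused numbered 0.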

Additional observations from a re-analysis of the deposited data

How the results depend on the processing

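miR-132-3p stayed higher and past the threshold under every alternative run, at 0.52 (normexp) to 3.25 (spiked-in RNAs) on the log2 scale, with 2.04 for the 75th percentile over all miRNAs, 3.07 with no scaling, 1.18 for the gene total signal (computed by the files with an effective feature size of 0.812 to 0.829 on LPS arrays and a default of 0.6 on control arrays) and 0.60 after quantile normalization. Its distance from the median of the shared miRNAs was 0.053 to 0.13, except 0.41 with normexp and 0.84 for the gene total signal. Leaving out single replicates gave 0.76 to 0.88. With the replicate block it was 0.85 (limma adjusted p = 0.000105), and the block changed no call of a member or of the LPS-induced list. The miR-212-3p bound, 0.924-fold after the main scaling, became at least 2.11-fold with the 75th percentile over all miRNAs, 4.32-fold with no scaling and 4.89-fold with spiked-in RNAs. Its fitted log2 value of 2.69, which rests on the floor and is no bound, was -0.41 with normexp; the cause was not tested. Members of the LPS-induced list called higher numbered 6 with normexp, where 4 were lower, 9 with the gene total signal, where 2 were lower, 9 with the floor doubled, and 6 where only miRNAs detected on all 6 arrays were tested, since fewer were then tested. The 5p arms were well above background on 0 arrays as well as detected on 0; no change was read for them under other settings. The difference on the 18-base probe of miR-212-5p, 0.0176 in unscaled signal, ranged from -0.371 to 0.594 when single replicates were left out. Counts of called miRNAs were 270 higher and 110 lower, against 113 and 284 with normexp, 337 and 59 with the 75th percentile over all miRNAs, 364 and 39 with no scaling and 369 and 38 with spiked-in RNAs; without a filter 269 were lower. The dim control arrays limit what can be said of miR-212-3p, and of the 5p arms nothing above background was measured.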
